A study of Mus musculus with 52 samples.

Results

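The MKS transition zone complex was examined through the 10 genes B9d1, B9d2, Mks1, Tctn1, Tctn2, Tctn3, Tmem67, Tmem216, Tmem231 and Cc2d2a, which were chosen by name from the 24421 gene symbols counted in the series. All 10 were found in every library. The cells were Cilia-APEX-IMCD3 cells, a mouse inner medullary collecting duct line that carries a cilium-targeted APEX peroxidase, and RNA sequencing covered 13 clones with 4 technical replicate libraries each, 52 in all. Ciliated cells comprised a clone homozygous for Wdr60 p.Ala911Val, the Wdr34 clones labelled 1 and 3, and 4 controls named D8, H12, A4 and G7. The non-ciliated set held a clone with Wdr34 p.Arg183Trp, a clone with Wdr60 p.Ala911Val, and 4 controls named AB, Co1, Co2 and Co3.

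Mutant clones were made with the cytosine base editor BE4-Gam, whereas controls received the editor and a guide vector without a target. The ciliated Wdr34 clones carry p.Arg183Trp and p.Gly394Ser, but the labels do not say which clone carries which allele. The study gives an additional heterozygous missense change for the p.Gly394Ser clone and an additional heterozygous synonymous change for the Wdr60 clone. Each allele is therefore represented by a single clone in a state. The study describes a single clone for each allele, and fewer control clones than the labels of both states name. The Wdr60 libraries of both states would then come from the same clone, and so may those of controls named differently in each state, which the labels do not settle. Each combination of clone and state is called a clone here, and the fits treat all 13 as independent. The ciliated state was induced by low serum according to the study's methods, although the labels give the same serum-containing medium for all libraries, and the states were sequenced at different times. State, serum, sequencing time and clone identity cannot be told apart in the comparison between states.

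The transition zone is the short segment at the base of the cilium where Y-shaped links join the microtubule doublets to the membrane. The MKS complex sits at this membrane and, together with the NPHP module and Cep290, acts as a gate that controls which proteins enter and leave the cilium. Its members are known from Meckel syndrome and Joubert syndrome, in which the kidney is often affected. Wdr34 and Wdr60 are intermediate chains of dynein-2, the motor of retrograde intraflagellar transport, whose cargo trains cross this gate. The comparisons therefore ask whether RNA of the gate components differs with ciliation state or with dynein-2 genotype.

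The promoter windows of the members are shown first because X-box motifs, the binding sites of RFX factors, are known from many ciliary genes. RefSeq windows of 300 bases, 250 before and 50 after the start of a transcript (GRCm38.p6), were found for 9 of the 10 members, with 11 windows in all, and Tmem67 had none in the table used. The letters GTNNCCNGNNAC, GTNNCCNNGNNAC and GTNNCCNNNGNNAC were searched on both strands, where N is any base. At least 1 of them was found in 7 of the 11 member windows, which belonged to 7 genes, and in 11% of all 32851 windows. The motifs were chosen with member sequences already seen, so that the count is a description. The matches are printed below within 30 bases, 5′ to 3′ on the strand of the gene, with the matching letters in capitals.
Tctn1: gcgctaggctgtgactGTTGCCCGGGCAAC
Tctn2: gattggagGTTACCATGGCTACtggtcctc
Tctn3: tcccagcgGTTGCCAGGTAACgggaaccac
Mks1: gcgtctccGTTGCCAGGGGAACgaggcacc
B9d2: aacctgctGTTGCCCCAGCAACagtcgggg
Tmem231: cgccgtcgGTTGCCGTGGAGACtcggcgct
Tmem216: tgtacgcaGTTTCCATGGGGACtgaacatg

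The printed sites are at chr5:122264411-122264440 (minus strand) for Tctn1, chr5:124598679-124598708 (plus) for Tctn2, chr19:40612350-40612379 (minus) for Tctn3 and chr11:87853183-87853212 (plus) for Mks1. Those of the other genes are at chr7:25680788-25680817 (plus) for B9d2, chr8:111933781-111933810 (minus) for Tmem231 and chr19:10555723-10555752 (minus) for Tmem216. The match began 62 bases before the transcript start in Tctn2, 140 before it in Tctn3 and 24 before it in Mks1, and within the 50 bases from the start in the other 4 genes. The 14-base form gave 6 of the 7 printed matches and the 13-base form gave that of Tctn3, whose window also held a 12-base match. The half-site GTTGCC, which lies inside several of the longer matches, was found in 7 of the 11 windows and in 12.5% of all windows, and in B9d1 it was the only match. The Cc2d2a window held none of these letters.

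Library totals were between 14816218 and 28084979 counts, and the members had between 26 and 1764 counts in a library, so that all 10 passed the expression filter. No 2 replicate libraries of a clone were identical. The counts were summed per clone and tested over clones, since libraries of 1 clone are not independent. CPM are counts-per-million scaled by TMM over all 52 libraries. Of 15 collecting duct and tubule epithelial markers, Krt8, Krt18, Cdh16, Pax2 and Pax8 were expressed in every clone, whereas the water channel gene Aqp2 was at 0 in all clones but 1, where it reached 0.0158 CPM. Gata3, Aqp3, Avpr2, Scnn1a and Slc14a2 of this list were also low, with highest clone means of 2.87, 1.065, 0.163, 5.47 and 4.64 CPM. Epcam was 13.4 CPM in the control G7 and 2.86 CPM in the control Co2, against 183 to 836 CPM in the other clones, and both of these controls are set apart below where they touch a result. Cdh1, Krt8, Krt18 and Krt19 of the same list were also lowest in G7 among ciliated controls and in Co2 among non-ciliated controls. Other genes of the list went the opposite way, since Cdh16, Pax2, Pax8 and Hoxb7 were highest of all 13 clones in G7, and Co2 was the highest non-ciliated control for each of them. Of 16 markers of other cells, Cd3e and Slc34a1 were at 0 in all clones, and the summed level of the list was 20.9 to 451 CPM in ciliated clones and 27.7 to 294 CPM in non-ciliated clones, with Lrp2 its most abundant gene in 10 of the 13 clones and Cubn in AB and both non-ciliated mutants.

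The targeted genes were examined first. Wdr34 was 40.1 ± 6.24 CPM (SD, n = 4) in ciliated controls, and 21.7 CPM in the ciliated Wdr34 clone 3 was the lowest value of the 13 clones. Wdr60 was 24.0 ± 1.70 CPM (SD, n = 4) in ciliated controls and 21.0 ± 0.935 CPM (SD, n = 3) in ciliated mutants, against 24.1 ± 2.49 CPM (SD, n = 4) in non-ciliated controls and 28.6 ± 3.20 CPM (SD, n = 2) in non-ciliated mutants. Against the 4 ciliated controls, Wdr34 in that clone had a log2 fold change of -0.90 (edgeR unadjusted p = 0.00779, adjusted p = 0.748). The difference of the mutant effects on Wdr60 was -0.44 on the log2 scale (edgeR unadjusted p = 0.0375, adjusted p = 0.9999). In non-ciliated controls Wdr34 was 26.5 ± 4.06 CPM (SD, n = 4). The log2 fold change of Wdr34 in ciliated over non-ciliated controls was 0.62 (edgeR unadjusted p = 0.0197, adjusted p = 0.0800). Neither gene was called in any comparison. The alleles are missense changes, so that RNA levels do not check the labels.

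Levels per length placed B9d1 and Tctn2 at the top of the complex and Cc2d2a at the bottom. Averaged over the control clones of both states, B9d1 had 23.6 CPM per kilobase of exon, Tctn2 18.4, Tmem216 13.9, Tctn3 12.7, Tmem231 9.46, B9d2 7.83, Tctn1 6.25, Tmem67 2.87, Mks1 1.90 and Cc2d2a 0.946 CPM per kilobase. The order of the first pair differed between states, with Tctn2 at 21.2 and B9d1 at 19.7 CPM per kilobase in ciliated controls and 15.7 and 27.5 in non-ciliated controls. In ciliated controls, the clone ranges of B9d1 (14.8 to 23.9 CPM per kilobase) and Tctn2 (17.1 to 25.1) overlapped, and so did those of Tmem216 (13.2 to 16.8) and Tctn3 (11.1 to 15.7). Tmem67 at 2.14 to 3.44 CPM per kilobase lay above Mks1 at 1.91 to 2.10 in every ciliated control, and Mks1 lay above Cc2d2a at 0.469 to 1.53. Tmem231 and B9d2 changed places when the longest annotated transcript was used in place of all annotated exons, which changed no other rank.

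**Figure D1:**
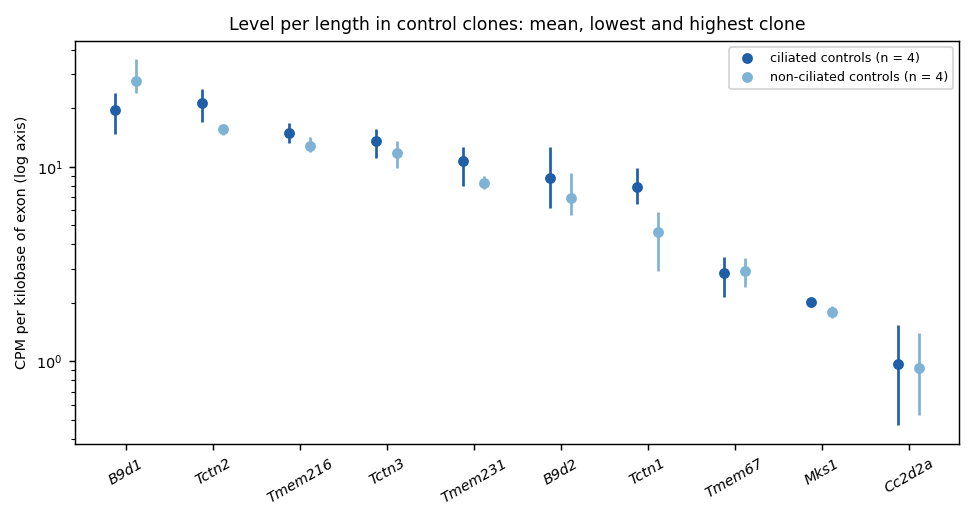
Level of each member per length in control clones, as CPM per kilobase of exon on a log axis. Points are means of 4 ciliated or 4 non-ciliated control clones and lines run from the lowest to the highest clone; Cc2d2a and Mks1 were lowest and B9d1 and Tctn2 highest.

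The B9 domain genes encode proteins that hold the complex at the membrane and include Mks1, the founding Meckel syndrome gene. B9d1 was 16.8 CPM in D8, 19.5 in H12, 15.9 in A4 and 12.1 in G7, the ciliated controls, and 29.2 in AB, 21.5 in Co1, 19.5 in Co2 and 19.8 in Co3, the non-ciliated controls. H12 and Co2 had equal values at this rounding, so that the groups met in mean CPM. In means of log2 CPM, the scale used for counts of overlap below, H12 at 4.282 lay just below Co2 at 4.286, and on that scale B9d1 was the only member for which all ciliated controls were lower. In ciliated mutants B9d1 was 17.4 ± 3.71 CPM (SD, n = 3) and in non-ciliated mutants 24.5 ± 2.88 CPM (SD, n = 2). B9d2 ranged from 8.90 to 18.3 CPM in ciliated controls and from 8.20 to 13.4 CPM in non-ciliated controls. The highest B9d2 value of each state was in G7 and Co2. Mks1 had 5.03 ± 0.209 CPM (SD, n = 4) in ciliated and 4.49 ± 0.266 CPM (SD, n = 4) in non-ciliated controls, and its SD of log2 CPM was the smallest of the members in ciliated controls.

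The tectonics are proteins that pass through or lie at the outer face of the ciliary membrane, and Tctn1 is known for its part in hedgehog signaling. Tctn1 was 48.5 CPM in D8, 56.1 in H12, 39.2 in A4 and 36.6 in G7, against 33.6 in AB, 16.6 in Co1, 25.1 in Co2 and 29.9 in Co3. All ciliated controls lay above all non-ciliated controls. Among mutants Tctn1 was 46.5 CPM in Wdr34 clone 1, 34.9 in Wdr34 clone 3 and 64.5 in the Wdr60 clone of ciliated cells, and 17.6 in the Wdr34 and 29.1 in the Wdr60 clone of non-ciliated cells. Tctn1 was the only member whose 7 ciliated clones all lay above its 6 non-ciliated clones, a separation in either direction that 15% of the 13994 genes tested showed. Tctn1 exons overlap Hvcn1 exons of the opposite strand over 1574 of 5717 bases, and the strand setting of the counting is not given in the sources used here. Hvcn1 itself was 0.369 to 5.27 CPM over the clones.

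Tctn2 was 53.6 CPM in D8, 68.7 in H12, 46.6 in A4 and 62.4 in G7, against 43.2 in AB, 39.6 in Co1, 44.4 in Co2 and 44.6 in Co3. The ciliated controls were again all higher, by a narrow margin between A4 and Co3. With the mutants the states overlapped, since the non-ciliated Wdr60 clone had 55.5 CPM of Tctn2. Tctn3 was 42.4 ± 5.85 CPM (SD, n = 4) in ciliated and 36.4 ± 6.30 CPM (SD, n = 4) in non-ciliated controls, and the groups overlapped.

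The membrane proteins comprise Tmem67, also called meckelin, a receptor-like protein, and the small proteins Tmem216 and Tmem231. Tmem67 ranged from 9.07 to 14.6 CPM in ciliated and from 10.3 to 14.4 CPM in non-ciliated controls, and 420 of its 4235 exon bases are shared with genes of the opposite strand, among them Rbm12b2. Rbm12b2 was 13.5 to 24.7 CPM over the clones. Tmem216 had 17.2 ± 1.86 and 14.8 ± 1.10 CPM (SD, n = 4 each) in the same groups. Tmem231 was 37.7 CPM in D8, 33.8 in H12, 32.5 in A4 and 23.8 in G7, against 24.2 in AB, 24.0 in Co1, 23.0 in Co2 and 26.8 in Co3. Only G7 among the ciliated controls lay within the range of the non-ciliated controls.

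**Figure D2:**
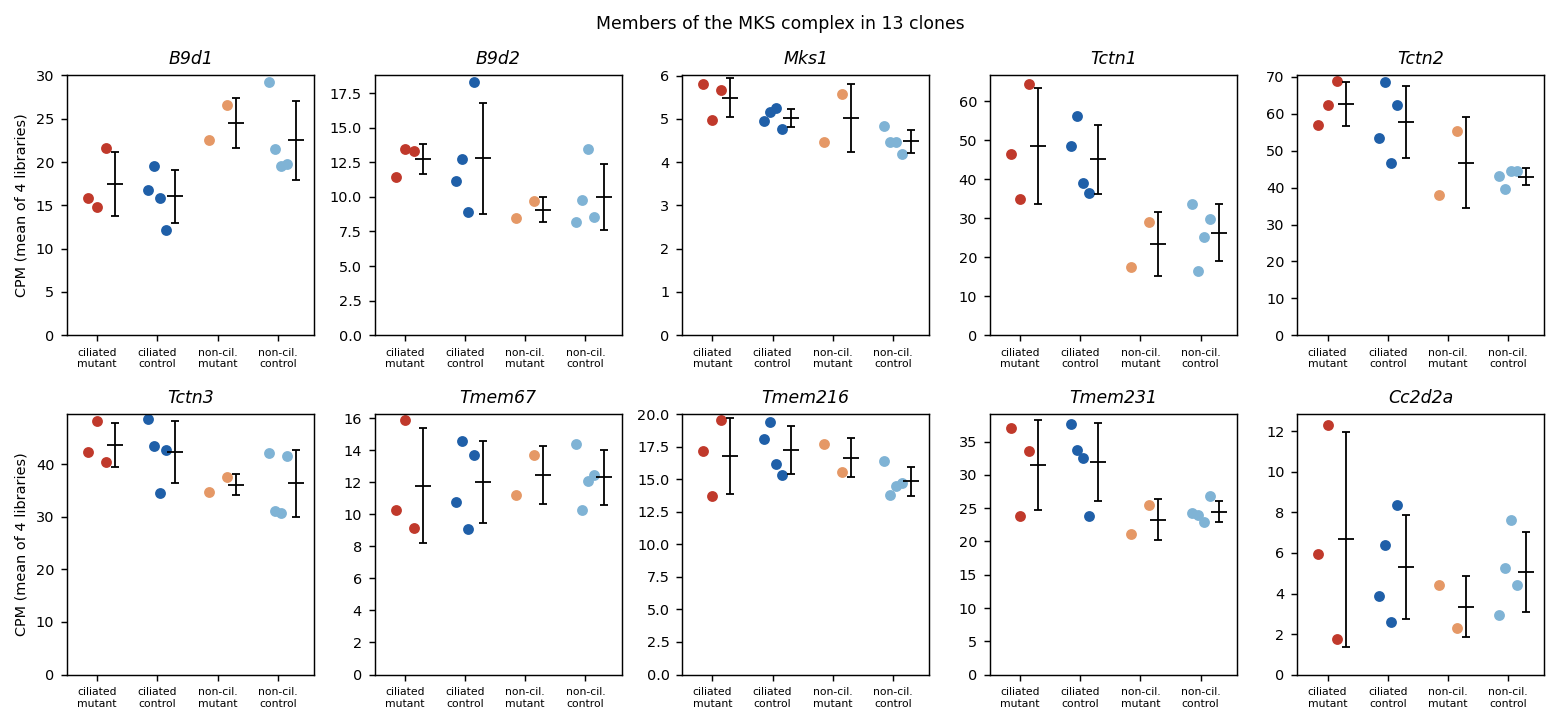
CPM of each member in 13 clones, grouped by state and genotype. Each point is the mean of the 4 libraries of a clone, and the bar with whiskers is the mean ± SD over clones; Tctn1 was higher in every ciliated clone, B9d1 was mostly lower in ciliated controls, with H12 and Co2 both at 19.5 CPM, and Cc2d2a spread most widely.

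Ciliated controls were next compared with non-ciliated controls, as the comparison that addresses ciliation state without mutant alleles. None of the 10 members was called at a Benjamini-Hochberg adjusted p under 0.05, whereas 18.4% of all genes tested were called, 1256 higher and 1324 lower in ciliated controls. At an unadjusted p under 0.05 there were 4 members, Tctn1, Tctn2, Tmem231 and B9d1, against 33.9% of all genes. The log2 fold change was 0.77 ± 0.26 (SE) for Tctn1 with an adjusted p of 0.0609, and 0.43 ± 0.15 (SE) for Tctn2 with an adjusted p of 0.0654. Tctn1 was thus 1.71-fold higher (95% interval 1.15 to 2.54) and Tctn2 1.34-fold higher (1.07 to 1.68) in ciliated controls. For B9d1 the log2 fold change was -0.46 ± 0.19 (SE, adjusted p = 0.110), and for Tmem231 it was 0.38 ± 0.17 (SE, adjusted p = 0.142).

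The remaining members had log2 fold changes between -0.06 for Tmem67 and 0.38 for B9d2. Cc2d2a had 0.04 with an interval of -1.16 to 1.25, so that a change of more than 2-fold in either direction was not resolved for this gene. The median log2 fold change of the members was 0.21 with 8 of 10 above 0, compared with a median of 0.02 and 51.6% above 0 over all genes. Over clone means of log2 CPM, 3 members did not overlap between the control groups, against 21.4% of all genes. Tctn1 and Tctn2 were higher, as were 9.96% of all genes without overlap, and B9d1 was lower, as were 11.4%. B9d1 was no longer apart when clone means of CPM were used, or without replicate 1 or replicate 4, and Tctn2 was no longer apart without replicate 1. The exact 2-sided permutation test gave p = 0.0286 for each of these 3, the smallest value that 4 against 4 clones can give, and p between 0.0571 and 1.0 for the others. Without the controls G7 and Co2, no member was called, against 20.8% of all genes, and 5 did not overlap, against 42.1% of all genes.

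Tests with another unit or tool gave other counts. DESeq2 on the same clone sums called Tctn1 (adjusted p = 0.0233) and Tctn2 (adjusted p = 0.0318), which voomLmFit with the clone as a block also called, and these tools called 26% and 27% of all genes. Leaving out the control A4 brought Tctn2 to an edgeR adjusted p of 0.0457, in a fit that called 13.2% of all genes. With technical replicate libraries as samples, 7 members were called by edgeR, but 61.9% of all genes were called as well.

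**Figure D3:**
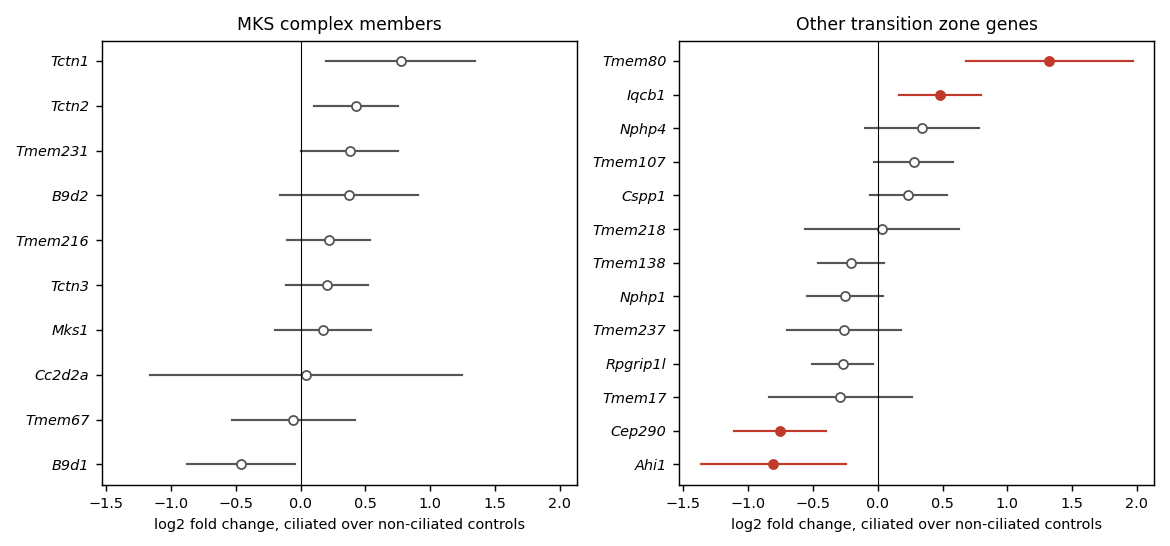
Log2 fold change of ciliated over non-ciliated control clones (4 against 4), with 95% intervals from the edgeR fit on clone sums, for the 10 members and 13 other transition zone genes. Filled red points have an adjusted p under 0.05; no member did, whereas Tmem80, Iqcb1, Ahi1 and Cep290 did.

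Of 13 other transition zone genes, 4 were called in the same comparison, 2 in each direction, against 18.4% of all genes. Tmem80, which encodes a transition zone membrane protein, was 2.50-fold higher in ciliated controls (adjusted p = 0.0119), from 4.26 ± 0.820 to 10.5 ± 3.88 CPM (SD, n = 4 each). Iqcb1, also known as Nphp5, was 1.40-fold higher (adjusted p = 0.0387). Cep290, which links the microtubules to the membrane, fell by 0.75 on the log2 scale (adjusted p = 0.0102), from 57.9 ± 11.0 to 35.2 ± 4.72 CPM (SD, n = 4 each). Ahi1 fell by 0.81 (adjusted p = 0.0475). The median log2 fold change of this list was -0.21, with 6 of 13 above 0.

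Among 10 genes of RFX and FOXJ1 regulation of cilia, 7 were tested and Rfx3 was called, which encodes an RFX factor and fell by 0.60 in ciliated controls (adjusted p = 0.0329). Of 10 proliferation genes, 5 were called and all 5 were lower in ciliated controls, with log2 fold changes of -0.94 for Bub1, -0.79 for Aurka, -0.66 for Plk1, -0.44 for Top2a and -0.36 for Ccnb1. Some markers of cell types were called as well, in a comparison that called 18.4% of all genes. Of the 15 collecting duct and tubule markers, 13 were tested and 2 were called, Cdh16 (2.11-fold higher in ciliated controls, adjusted p = 0.0132) and Hoxb7 (1.71-fold higher, adjusted p = 0.0314). Of the 16 markers of other cells, 6 were tested and 2 were called. Cubn, a proximal tubule receptor, was lower at 3.16 ± 0.276 against 17.0 ± 4.46 CPM (SD, n = 4 each, edgeR adjusted p = 0.00122). Umod, a marker of the thick ascending limb, was higher at 0 to 9.75 CPM in ciliated controls, with the highest value in H12. Its range in non-ciliated controls was 0 to 0.0139 CPM (edgeR adjusted p = 0.0182). The part of the proliferation genes and of these markers in the members' values was not tested. In bulk RNA, fewer cells with a transcript and less transcript per cell cannot be told apart.

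Mutants were then compared with controls of the same state. None of the 10 members was called in ciliated cells (3 mutant against 4 control clones), where 0% of all genes were called, and none in non-ciliated cells (2 against 4), where 0% were called as well. At an unadjusted p under 0.05 the edgeR fit gave 0 members in either state, against shares of all genes of 1.94% (ciliated) and 3.69% (non-ciliated). Adjusted p-values of the members were 0.9999 in ciliated cells and 1 in non-ciliated cells. DESeq2, which called 0.0214% (ciliated) and 0.1% (non-ciliated) of all genes, and voomLmFit, which called 0.0717% and 0.0558%, called no member in either state.

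For the 9 members other than Cc2d2a the differences were small. Their log2 fold changes lay between -0.03 for Tmem216 and 0.12 for Tctn2 in ciliated cells, and between -0.17 for Tctn1 and 0.18 for Tmem216 in non-ciliated cells. The 95% intervals reached from 0.659-fold (B9d2) to 1.65-fold (Tctn1) in ciliated cells and from 0.547-fold (Tctn1) to 1.56-fold (B9d1) in non-ciliated cells, so that changes of this size were not resolved. Without G7 and Co2, the log2 fold changes of the 9 members lay between -0.13 for Tmem231 and 0.23 for B9d2 in ciliated cells. In non-ciliated cells they then lay between -0.20 for Tctn1 and 0.16 for Tmem216. No member had mutant clones that all lay above or all lay below the controls in mean log2 CPM, and for Tctn2 the non-ciliated Wdr34 clone lay below and the Wdr60 clone above them. Over all genes separation in a single direction was seen for 2.14% in ciliated and 13.1% in non-ciliated cells. Exact permutation p-values over clones were 0.200 to 0.943 in ciliated cells, where the smallest possible is 0.0286, and 0.200 to 0.933 in non-ciliated cells, where it is 0.0667.

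The pooled mutant effect did not differ detectably between states. The p.Gly394Ser allele was only in the ciliated set, so that state and set of alleles cannot be told apart in this test. No member was called for the difference of the effects, with log2 values between -0.22 for Tmem216 and 0.94 ± 0.91 (SE) for Cc2d2a, and 0% of all genes were called. At an unadjusted p under 0.05 this test gave 0 members and 0.972% of all genes. Of the other transition zone genes, 0 of 13 were called in either state by edgeR, and 1, Tmem17, had an unadjusted p under 0.05, in ciliated cells, with a log2 fold change of 0.83 (adjusted p = 0.9999).

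Each mutant clone was also compared with the 4 controls of its state, because the alleles differ. The mutant arm is then a single clone with no spread of its own, which the fit assumes to vary like the controls. No member was called by edgeR in any of the 5 comparisons, and 0 had an unadjusted p under 0.05, which 1.01% of all genes had for the ciliated Wdr34 clone 1, 6.13% for Wdr34 clone 3, 2.42% for the ciliated Wdr60 clone, 2.06% for the non-ciliated Wdr34 clone and 2.9% for the non-ciliated Wdr60 clone. Without the controls G7 and Co2, Cc2d2a (log2 fold change 1.53, edgeR unadjusted p = 0.0221, adjusted p = 0.235) and Tmem231 (-0.53, unadjusted p = 0.0304, adjusted p = 0.255) had an unadjusted p under 0.05 for Wdr34 clone 3, as did 16.1% of all genes. Over all genes in the fit with all controls, 0.00715% were called for the ciliated Wdr34 clone 3 and 0% for each of the other 4 clones. Clone means of log2 CPM outside the range of the 4 controls were counted as a description. In ciliated cells 1 member lay outside for Wdr34 clone 1 (23.6% of all genes did), 4 for Wdr34 clone 3 (35.1%) and 5 for the Wdr60 clone (30.7%). In non-ciliated cells 3 members lay outside for the Wdr34 clone (35% of all genes) and 3 for the Wdr60 clone (35.9%). Without G7, 2 members lay outside the 3 remaining ciliated controls for Wdr34 clone 1 (40.8% of all genes), 8 for Wdr34 clone 3 (59.3%) and 6 for the Wdr60 clone (43.2%). Tmem231 in Wdr34 clone 3, at 23.9 CPM, was among those added, since G7 at 23.8 CPM was the only ciliated control near it. Mks1 was also added for this clone, at a mean log2 CPM of 2.3076 against 2.308 in D8. In mean CPM it was 4.98 against 4.95 in D8, and so not below the controls. For Wdr34 clone 1, B9d1 was added at a mean log2 CPM of 3.9788 against 3.9796 in A4. Without Co2, the counts stayed at 3 for both non-ciliated mutants (48.7% and 51% of all genes).

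In the ciliated Wdr34 clone 3, Cc2d2a at 12.3 CPM and Tmem67 at 15.9 CPM lay above the controls, and Tctn1 at 34.9 CPM and Tmem216 at 13.7 CPM lay below them. In the ciliated Wdr60 clone, B9d1, Mks1, Tctn1 and Tctn2 lay above and Cc2d2a below the controls. The B9d1 libraries of this clone were unlike, at 16.0, 15.1, 29.5 and 25.9 CPM (SD 7.18 CPM), against a highest control of 19.5 CPM. Tmem216, at 19.5 CPM against a highest control of 19.4, was a further member above the controls in mean CPM but not in mean log2 CPM. In mean CPM the count for this clone would be 6 in place of 5, and 30.5% of all genes lay outside on that scale. The Wdr60 clones of both states were outside their own controls in the same direction for 3 members, Mks1 and Tctn2 above and Cc2d2a below, and 12.7% of all genes shared this property. Since both would be the same clone, this is a repeat in another state and not a second clone of the allele. Mks1 was 5.67 CPM in the ciliated and 5.57 CPM in the non-ciliated Wdr60 clone, above the highest controls at 5.24 and 4.83 CPM. Tctn2 was 68.9 and 55.5 CPM, against highest controls at 68.7 and 44.6 CPM. The margin in ciliated cells was smaller than the SD of 5.76 CPM between the 4 libraries of the Wdr60 clone.

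**Figure D4:**
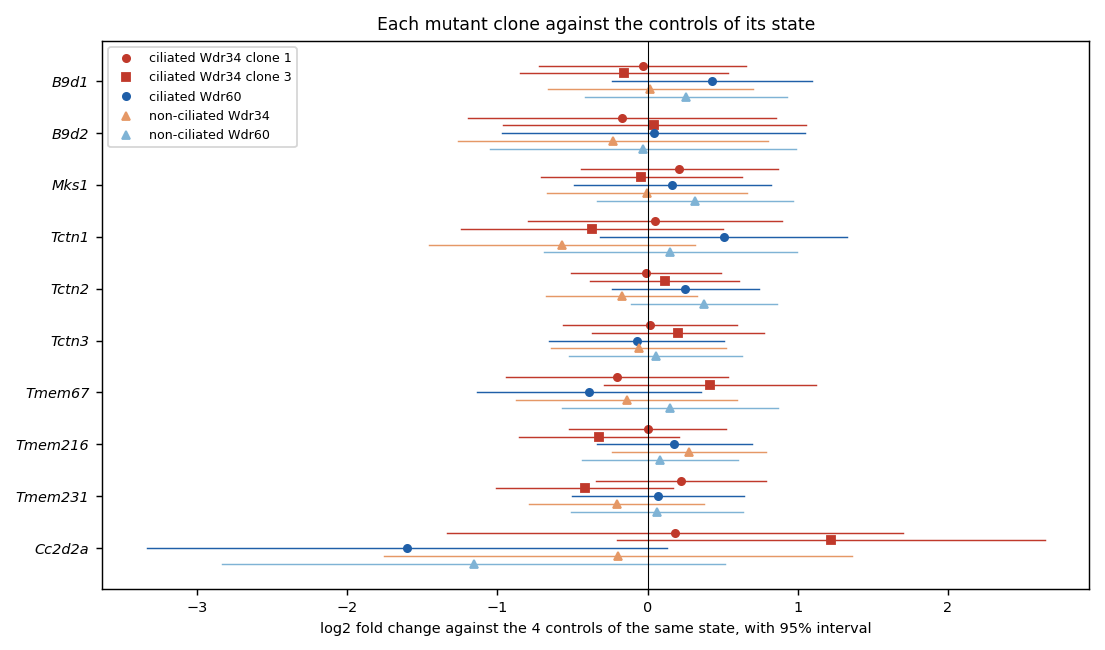
Log2 fold change of each mutant clone against the 4 control clones of its state, with 95% intervals from the edgeR fit in which every mutant clone is its own group. Circles and squares are ciliated and triangles non-ciliated clones; all intervals include 0, and those of Cc2d2a were widest, with values from -1.60 to 1.22.

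Cc2d2a, which encodes a coiled-coil and C2 domain protein needed to assemble the complex, varied most between clones. It was 5.95 ± 0.819 CPM in Wdr34 clone 1, 12.3 ± 0.229 in Wdr34 clone 3 and 1.75 ± 0.228 in the Wdr60 clone of ciliated cells (SD over 4 libraries). The ciliated controls had 3.90 ± 0.605 CPM in D8, 6.38 ± 0.359 in H12, 2.57 ± 0.643 in A4 and 8.39 ± 0.664 in G7. The mutants thus held both the highest and the lowest value of the state.

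In non-ciliated cells Cc2d2a was 4.42 ± 0.414 CPM in the Wdr34 and 2.29 ± 0.532 in the Wdr60 clone, and 2.92 ± 0.873 in AB, 5.28 ± 0.898 in Co1, 7.63 ± 0.376 in Co2 and 4.43 ± 1.02 in Co3 (SD over 4 libraries). The Wdr60 clone was lowest in both states. The highest clone was 7.03 times the lowest in ciliated and 3.34 times in non-ciliated cells, whereas this ratio was at most 2.06 for every other member. The SD of log2 CPM over the 7 ciliated clones was 0.98, larger than that of 85.8% of all genes, and over the 6 non-ciliated clones 0.63, larger than that of 77.8%. Mks1 had the smallest SD of the members in ciliated clones, 0.11, with a smaller SD in 3.23% of all genes. In non-ciliated clones this place was held by Tmem231 with 0.12 (8.55% of all genes smaller), followed by Tmem216 with 0.13 (11%) and Mks1 with 0.14 (14.6%).

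Against the controls, Cc2d2a had a log2 fold change of 1.22 ± 0.62 (SE) in the ciliated Wdr34 clone 3 with an edgeR adjusted p of 0.854, and of -1.60 ± 0.76 (SE) in the ciliated Wdr60 clone with an adjusted p of 1. In the non-ciliated Wdr60 clone it was -1.16 ± 0.74 (SE, adjusted p = 1). These mutant arms are single clones (n = 1), so that the SE and p rest on the spread among the controls. The pooled value of the ciliated mutants, 0.34 ± 0.59 (SE), turned to -0.45 without Wdr34 clone 3 and rose to 0.79 without the Wdr60 clone. The pooled value of the non-ciliated mutants, -0.60 ± 0.69 (SE), was -0.20 without the Wdr60 clone and -1.16 without the Wdr34 clone. Without G7 and Co2, which had the highest Cc2d2a among the controls of their states, these values were 0.65 in ciliated and -0.35 in non-ciliated cells.

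The 3 clones with the most Cc2d2a, Wdr34 clone 3, G7 and Co2, were also those with the least Krt8, a keratin of simple epithelia, a pattern singled out after the values were seen. Krt8 was 76.7, 26.2 and 41.0 CPM in these clones and 373 to 952 CPM in the other 10. Krt18 and Krt19 separated the same clones in the same direction. The other 12 of 15 collecting duct and tubule markers and all 16 markers of other cells overlapped between these 3 clones and the other 10. Lrp2, a proximal tubule receptor, was 62.3 CPM in Wdr34 clone 3, 446 in G7 and 272 in Co2, against 4.62 to 96.5 CPM in the others, while Cd3e and Slc34a1 were at 0 throughout. Foxj1, at 42.3 CPM in Wdr34 clone 3, 5.09 in G7 and 12.5 in Co2, was in each the lowest of its group of state and genotype. Rfx2 was also lowest there, at 24.6, 16.1 and 22.3 CPM, whereas Rfx1, Rfx3, Rfx5 and Rfx7 were not lowest in all 3. The part of these genes in the Cc2d2a values was not tested.

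**Figure D5:**
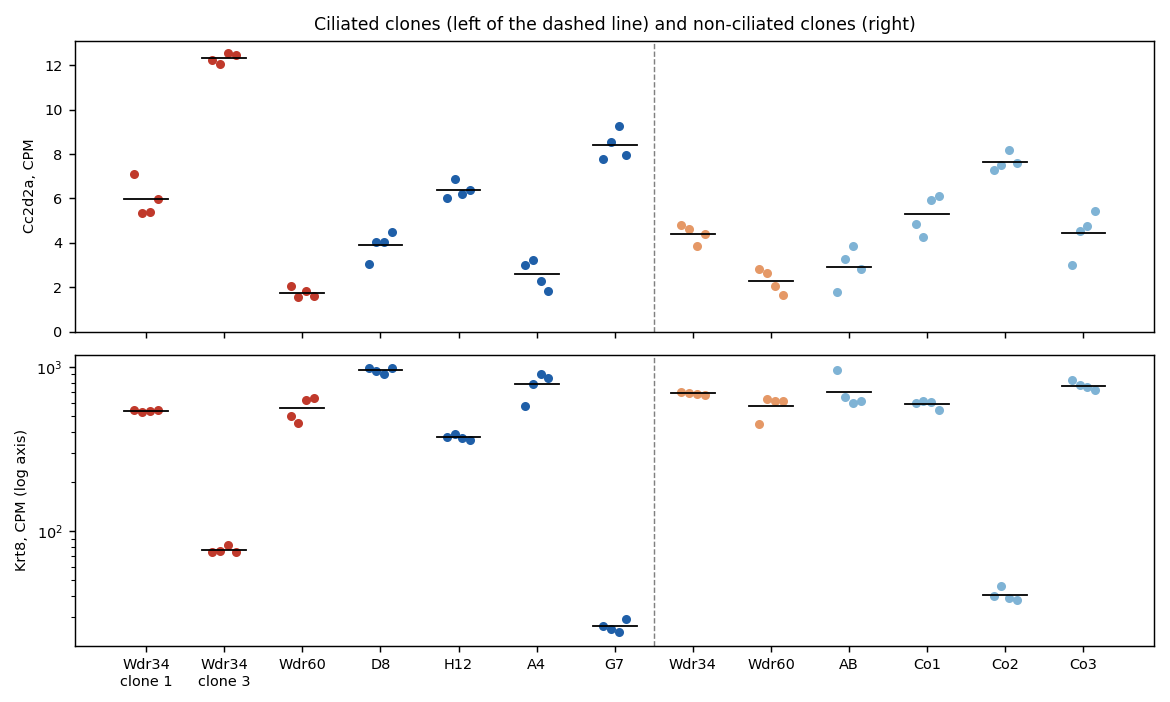
Cc2d2a (upper panel, CPM) and Krt8 (lower panel, CPM on a log axis) in each of 52 libraries, with 4 points per clone and a line at the clone mean. Wdr34 clone 3, G7 and Co2 had the highest Cc2d2a, at 12.3, 8.39 and 7.63 CPM, and the lowest Krt8.

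Likeness between members depended on the clones included. After subtraction of the mean of each state, Pearson's r of log2 CPM over the 13 clones had a median of 0.13 over the 45 pairs, with 27 pairs above 0. These values share libraries and depth, and are given as a description. B9d1 and Tmem216 were the most alike (r = 0.70), and each was the other's closest member. Mks1 (r = 0.64) and Tctn1 (r = 0.64) were also closest to B9d1, Tctn2 to Tctn1 (r = 0.55) and Tmem231 to Tctn1 (r = 0.58). Tctn3 and Tmem67 were closest to each other (r = 0.63). Cc2d2a was closest to B9d2 (r = 0.56) and least like B9d1 (r = -0.68), which was the lowest value of all pairs, and it was also the member least like Mks1, Tctn1, Tmem216 and Tmem231. Without G7 and Co2, r of Cc2d2a was 0.36 with B9d2 and -0.60 with B9d1 over 11 clones, its closest member was Tmem67 (r = 0.56), and the median over pairs was 0.22. Without Wdr34 clone 3 as well, r was 0.14 with B9d2 and -0.50 with B9d1 over 10 clones, and that of B9d2 with B9d1 had turned from -0.45 over all clones to 0.38. The median over pairs was then 0.30 with 37 of 45 above 0, the most alike pair was B9d2 and Tctn2 (r = 0.74), Mks1 and Tctn1 were closest to Tctn2, and r of Tmem216 with Tmem231 had turned from 0.50 to -0.42.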

How the data were processed

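Reads had been aligned by the authors to GRCm38/mm10 with Rsubread (R 3.4.4), assigned to genes with featureCounts and tested with DESeq2 1.18.1, per the paper's methods and the submitters' processing notes. The authors deposited raw counts for each symbol and library. Groups came from the labels. Library totals were 14816218 to 28084979 counts. Counts of the 4 libraries of a clone were summed and fitted over 13 clones and 4 groups (state by genotype) with edgeR 4.0.16 in R 4.3.3 (filterByExpr, TMM, glmQLFit, glmQLFTest, 2-sided), which left 13994 genes; single mutant clones were fitted as groups of their own. Genes were called at a Benjamini-Hochberg adjusted p under 0.05 over all genes tested. Clone means of log2 CPM (prior count 0.5) were compared by exact 2-sided permutation. The fit was tested on simulated counts, but the outcome is not given here and no result rests on it. Lengths and exon overlaps came from GENCODE vM21 (basic), promoter windows from RefSeq (GRCm38.p6). All members were named. Of other transition zone, RFX/FOXJ1 and proliferation genes, those called in the state comparison were named. Tmem17 was added for its unadjusted p, and Foxj1 with some RFX genes for the 3 clones highest in Cc2d2a. Members and lists were chosen with earlier results of these data known. Alternatives were limma 3.58.1 (voomLmFit), DESeq2 1.42.0, other scaling, filters, thresholds and units, and leaving out clones or replicates.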

Additional observations from a re-analysis of the deposited data

Results flagged for a closer look

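In 7 of 130 sets of 4 replicate libraries (10 members in 13 clones), the highest or lowest library was set apart from the other 3 by Dixon's test at its 95% critical value, of which chance gives about 1 in 20. B9d1 was 39.6 CPM in library 1 of AB, against 25.0 to 26.3 CPM in its other libraries, and 17.0 CPM in library 4 of G7, against 9.69 to 10.9 CPM. B9d2 was 8.06 CPM in library 1 of the non-ciliated Wdr60 clone, against 10.1 to 10.6 CPM. Tctn3 was 40.9 CPM and Tmem216 19.8 CPM in library 1 of A4, against 32.1 to 32.8 CPM and 14.6 to 15.3 CPM. Tctn3 was also 47.6 CPM in library 4 of D8, against 48.9 to 49.1 CPM, and Tmem231 was 28.7 CPM in library 2 of the non-ciliated Wdr60 clone, against 24.0 to 24.7 CPM. Over the 20 sets of 4 control clones, none was set apart.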

How the results depend on the processing

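The counts of members called were 0 in every comparison of the main test, and they stayed 0 for mutants against controls in both states and for the difference between states under all alternatives that gave a value. For ciliated against non-ciliated controls, 7 members were called with libraries as samples (61.9% of all genes), 7 when the replicate number was added as a block to that fit (60.8%), 2 by voomLmFit with the clone as a block, 2 by DESeq2 on clone sums, and 0 to 1 when a clone or a replicate number was left out (8.44% to 22% of all genes). For single mutant clones, 11 member calls were made with libraries as samples, where 5.64% to 26.8% of all genes were called per clone, and 10 with the replicate block, where 4.41% to 25.4% were. The replicate numbers gave no clear pairing of the libraries. The median correlation of same-numbered libraries was 0.01 in each state, against -0.0046 (ciliated) and -0.0026 (non-ciliated) for other numbers. In ciliated cells 9 of 84 same-numbered pairs were above 0.1, against 12 of 252 differently numbered pairs. In non-ciliated cells these counts were 0 of 60 and 4 of 180. Members whose control clone means did not overlap between states numbered 3 (21.4% of all genes), 2 with clone means of CPM (21.4%) and 5 without G7 and Co2 (42.1%), both chosen after seeing the data. Leaving out single control clones or replicate numbers gave 2 to 5 (20.7% to 33.2% of all genes), with 5 without AB (26.2%) and 5 without G7 (30%). Values that were not called changed sign in 11 of 260 alternatives of the state comparison (8 for Cc2d2a and 3 for Tmem67), 24 of 260 in ciliated and 17 of 260 in non-ciliated mutants, and 47 of 250 for the difference between states. Other thresholds, filters and RLE scaling called no member. voomLmFit was run for the 4 group comparisons only, and fitting each state alone gives no difference between states. Where 1 mutant clone remained, it was assumed to vary like the other groups. Members had 26 or more counts in a library, and at the lowest counts counting error is largest.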
